A study of Rattus norvegicus with 6 samples.

Results

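Matrix metalloproteinase (MMP) genes were followed in the transected and in the intact sensory nerve of the rat lower jaw. The 10 genes Mmp2, Mmp3, Mmp9, Mmp11, Mmp12, Mmp13, Mmp14, Mmp15, Mmp17 and Mmp19 were taken by their exact gene symbol from a deposited table of 34106 genes, and each was found once. Bulk RNA-seq had been done on the inferior alveolar nerve (IAN), a branch of the trigeminal nerve, on day 14 after surgery, with 3 libraries from rats with IAN transection (IANX) and 3 from sham rats (Sham). The rats were male Sprague-Dawley rats of 6 to 7 weeks when purchased, and so were older on day 14 after surgery. In IANX rats the IAN and the mental nerve were cut to leave a gap between stumps that were not sutured, after bone over the nerve had been drilled away. Sham surgery stopped at the cuts through skin and masseter and left the nerve whole, and whether bone was removed in it is not stated. The GEO labels write "transfection" for the IANX treatment and "none" for Sham. Each group is described as 3 biological replicates.

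MMPs are zinc proteases that are made as inactive proenzymes, in which a cysteine of the propeptide holds the catalytic zinc until it is displaced. Some are secreted (the collagenases, gelatinases, stromelysins and elastase), while the membrane-type enzymes are held on the cell surface, where MMP14 also activates pro-MMP2. Tissue inhibitors of metalloproteinases (TIMPs) bind the active site. In injured peripheral nerve, MMPs are known for cleaving matrix and myelin proteins and for opening the blood-nerve barrier. RNA levels, as measured here, do not tell how much enzyme is active.

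The family has 10 genes that lie side by side on chromosome 8 (rn6, chr8:5522739-5901049), in the order Mmp13, Mmp12, Mmp1b, Mmp3, Mmp1, Mmp10, Mmp8, Mmp27, Mmp20 and Mmp7. To show what these neighbours share in sequence, the 100 bases before the RefSeq transcription start are printed for 6 of them and for Mmp15, which lies on another chromosome. RefSeq gives them on build GRCr8, whose coordinates differ from those of the count table. Promoters were matched by symbol for 17 of 25 family names and for 5 of the 10 genes described here. These 5 are Mmp3, Mmp11, Mmp12, Mmp13 and Mmp15, and Mmp2, Mmp9, Mmp14, Mmp17 and Mmp19 were not matched. Capitals mark 2 motifs, searched on both strands, which did not overlap each other, namely the AP-1 site TGANTCA and the TATA box TATAAA. Each run reads 5′ to 3′ on the gene's strand.
Mmp13 (chr8:12782729-12782828, plus strand): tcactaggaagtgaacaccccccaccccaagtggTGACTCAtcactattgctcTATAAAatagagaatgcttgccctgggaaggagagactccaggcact
Mmp12 (chr8:12866552-12866651, plus strand): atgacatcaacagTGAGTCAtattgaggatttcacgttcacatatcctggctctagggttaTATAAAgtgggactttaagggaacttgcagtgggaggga
Mmp3 (chr8:12925181-12925280, plus strand): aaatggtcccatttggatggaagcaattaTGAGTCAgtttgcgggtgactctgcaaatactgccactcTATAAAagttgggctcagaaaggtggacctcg
Mmp10 (chr8:12974607-12974706, plus strand): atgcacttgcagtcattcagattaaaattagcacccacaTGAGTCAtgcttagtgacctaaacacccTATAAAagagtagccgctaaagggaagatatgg
Mmp27 (chr8:13030652-13030751, plus strand): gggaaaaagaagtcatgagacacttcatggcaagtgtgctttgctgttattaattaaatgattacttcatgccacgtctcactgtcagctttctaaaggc
Mmp20 (chr8:13074179-13074278, plus strand): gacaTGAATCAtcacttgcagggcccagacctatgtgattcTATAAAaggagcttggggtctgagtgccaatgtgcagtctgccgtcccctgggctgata
Mmp15 (chr19:9691001-9691100, minus strand): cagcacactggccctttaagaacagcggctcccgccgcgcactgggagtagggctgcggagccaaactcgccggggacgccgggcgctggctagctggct

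In this window, AP-1 letters were present in 7 of the 10 chromosome 8 genes, against 2.41% of all 27457 rat promoters in the table. They began 66 bases before the start in Mmp13, 87 in Mmp12, 71 in Mmp3, 61 in Mmp10 and 96 in Mmp20. TATAAA was present in 8 of the 10, against 5.95% of all promoters. Mmp27 and Mmp1b had neither motif, and Mmp8 had the TATA letters only. Of 7 family genes elsewhere in the genome, 0 had the AP-1 letters and 1, Mmp21, had TATAAA. Of the 7 genes with AP-1 letters, Mmp3, Mmp10, Mmp1 and Mmp7 had too few reads to test, and the values of Mmp13, Mmp12 and Mmp20 follow. Of those without, Mmp1b had no reads and Mmp8 did not pass the threshold given below. Mmp27 was higher in IANX, as were the 3 tested genes with the letters and 17.8% of all tested genes. Mmp12 and Mmp27 had enough reads for the test in the IANX libraries only. Their place among the tested genes thus came from being high there. The match of a motif is a description of the letters and not of a bound site.

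Depth was alike in the groups, with 13988750 to 16440720 counts per library in IANX and 14630127 to 17105402 in Sham. Levels are given in CPM, the count as a part of the library's total, scaled by TMM, the trimmed mean of M values. IANX and Sham were compared over all genes with the quasi-likelihood test of edgeR, and a gene was called at a Benjamini-Hochberg adjusted p under 0.05. Of 15374 tested genes, 2734 were higher and 2550 lower in IANX, and the median log2 fold change was 0.08. The nerve's own markers were present in each library. The 8 Schwann cell markers (Mbp and others) summed to 1760.1 to 7353 CPM in IANX and to 71428 to 82548 CPM in Sham, and 7 of them were lower. Tooth transcripts set the IANX libraries apart from each other. The 7 markers of enamel- and dentin-forming cells (5 tested, 4 higher) summed to 55470, 1774 and 60319 CPM in IANX 1, 2 and 3, but only to 108 to 846 CPM in Sham. Since the samples are bulk tissue, fewer cells of a type and less RNA per cell cannot be told apart.

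The 10 genes together took 0.166%, 0.207% and 0.212% of all counts in IANX 1, 2 and 3, against 0.113%, 0.124% and 0.121% in Sham 1, 2 and 3. After TMM scaling their sums overlapped, at 1410.1, 1858 and 1758 CPM in IANX 1, 2 and 3, against 1336, 1514 and 1343 CPM in Sham 1, 2 and 3. Of the 10, 8 passed the filter on low counts, while Mmp3 and Mmp11 did not. Of these 8, 7 were higher in IANX (Mmp2, Mmp9, Mmp12, Mmp13, Mmp14, Mmp17 and Mmp19) and 1, Mmp15, was lower. Over all tested genes, 17.8% were higher and 16.6% lower, or 34.4% in either direction, and with DESeq2, which gave the same 7 and 1, these were 17.4%, 16.2% and 33.6%. The libraries of the groups did not overlap for any of the 8. Over all tested genes this held for 27.0% with IANX above and 24.5% with IANX below, or 51.5% in all. Mmp12 reached the filter's level of 0.664 CPM in the 3 IANX libraries and in 0 Sham libraries, so that it was tested only because it was high in IANX. The number of higher genes rested on having 3 Sham libraries: it was 4 without Sham 1, 3 without Sham 2 and 3 without Sham 3, while Mmp15 was lower in each. Over all tested genes the number higher fell as well, from 2734 of 15374 with all libraries. It was 1554 of 16172 without Sham 1, 1029 of 16180 without Sham 2 and 961 of 16142 without Sham 3.

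**Figure D1:**
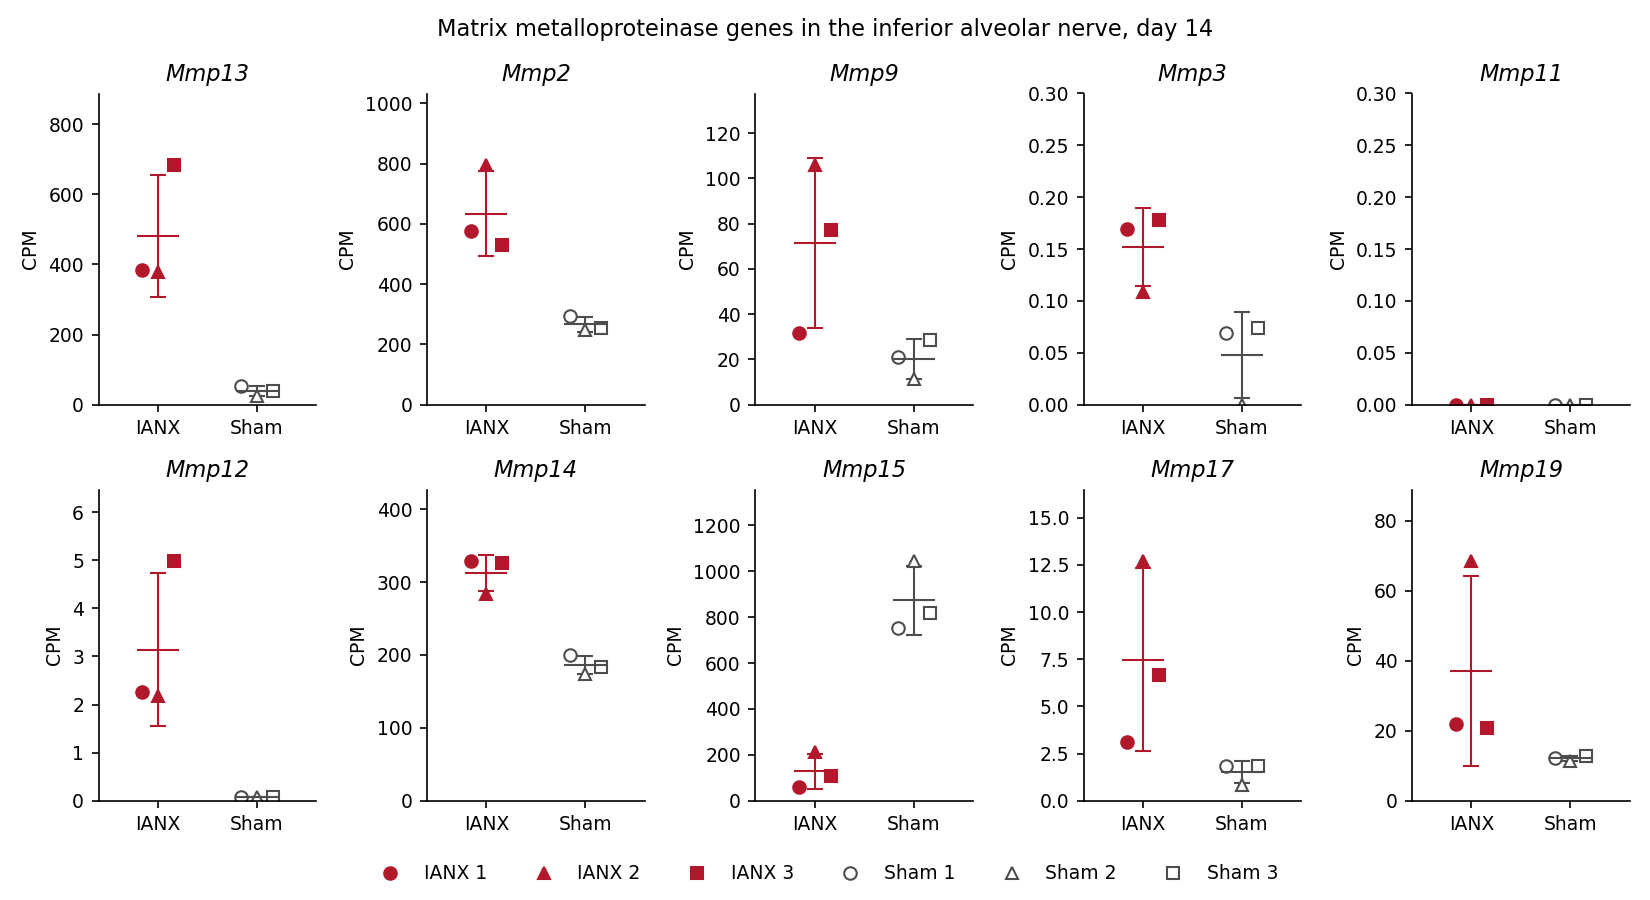
TMM-normalized CPM of the 10 MMP genes in each library, with IANX (filled, red) left of Sham (open, grey); the horizontal line is the mean and the bar the SD of 3 libraries, and each panel has its own axis from 0. Mmp15 is the gene with IANX below Sham, at 61.7 to 212 CPM in IANX and 754 to 1043 CPM in Sham, and Mmp11 is at 0 in all libraries.

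Among the collagenases, which cut the triple helix of fibrillar collagen, Mmp13 (ENSRNOG00000008478, chr8:5522739-5533018 of rn6) is the one secreted collagenase of the 10. It had 384, 378 and 683 CPM in IANX 1, 2 and 3, against 53.2, 23.7 and 40.1 CPM in Sham 1, 2 and 3. IANX 3 was the highest, IANX 1 and IANX 2 were close to each other, and the lowest IANX library lay far above the highest Sham library. The log2 fold change was 3.62 (standard error 0.39, adjusted p = 0.0011, edgeR, n = 3 per group). Mmp13 passed in each of 15 alternative analyses, with log2 fold changes of 3.28 to 4.08. It was 3.28 in IANX 2 alone against Sham, the IANX library with few tooth transcripts. The 10 osteoblast markers, 8 of which were higher, summed to 3007, 1469 and 1208 CPM in IANX 1, 2 and 3, against 1171, 402 and 453 CPM in Sham 1, 2 and 3, and their part in the result was not tested. Mmp13 was lowest where Sham had the lowest sum, in Sham 2, but highest in IANX 3, where the IANX sum was lowest.

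The gelatinases MMP2 and MMP9 cut denatured collagen and type IV collagen of basement membranes. Mmp2 (ENSRNOG00000016695, chr19:15542765-15570611) had 577, 795 and 530.0 CPM in IANX 1, 2 and 3, against 294, 249 and 256 CPM in Sham 1, 2 and 3. All IANX libraries were above all Sham libraries, and the Sham libraries were close to each other. Its log2 fold change was 1.25 (standard error 0.21, adjusted p = 0.00533, edgeR), and it passed in all 15 alternatives (1.02 to 1.69).

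Mmp9 (ENSRNOG00000017539, chr3:161413298-161421520) varied more within a group. It had 31.5, 106 and 77.0 CPM in IANX 1, 2 and 3, against 20.8, 11.2 and 28.5 CPM in Sham 1, 2 and 3. IANX 1 was only just above the highest Sham library. The log2 fold change was 1.82 (standard error 0.49, adjusted p = 0.0263, edgeR). Without IANX 3, Sham 1, Sham 2 or Sham 3 it did not pass (adjusted p = 0.0663, 0.0871, 0.102 and 0.0540). The 18 macrophage markers, of which 8 were higher and 0 lower and none was at 0 throughout IANX or Sham, had sums of 1020, 2510 and 1139 CPM in IANX 1, 2 and 3, against 695, 614 and 774 CPM in Sham 1, 2 and 3. Mmp9 had the same order as this sum over the 6 libraries, and the part of macrophage number in the result was not tested. The 10 neutrophil markers, of which 8 were tested and 0 called, summed to 35.4, 114 and 246 CPM in IANX 1, 2 and 3, against 89.3, 129 and 279.6 CPM in Sham. Ltf, too low to test, had 0 counts in all IANX libraries and 0, 2 and 0 counts in Sham 1, 2 and 3.

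Mmp12 (ENSRNOG00000030187, chr8:5606592-5616493), the macrophage elastase, had few reads. It had 40, 40 and 84 counts in IANX 1, 2 and 3 and 1 count in each Sham library. In normalized units these were 2.26, 2.18 and 4.98 CPM in IANX, against 0.0690, 0.0833 and 0.0738 CPM in Sham. IANX 3 stood above the other IANX libraries, as it did for the neighbouring Mmp13. Normalized counts in IANX were 41.4 times those in Sham (95% interval 13.9 to 203, counting error only). The fitted log2 fold change was 5.24 (standard error 0.63, adjusted p = 0.00158, edgeR). On the log2(FPKM + 1) scale it was 1.34, since the pseudocount is large beside the Sham level. Mmp12 did not follow the sum of the macrophage markers in IANX, which was highest in IANX 2.

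Of the stromelysins, which cut proteoglycans, laminin and fibronectin and can activate other proMMPs, Mmp3 (ENSRNOG00000032626, chr8:5676665-5698579) was near the limit of detection. It had 3, 2 and 3 counts in IANX 1, 2 and 3, against 1, 0 and 1 counts in Sham 1, 2 and 3. The ratio of 3.03 had a 95% counting interval of 0.604 to 29.3, so that no difference was detectable at this depth. Mmp11 (ENSRNOG00000028344, chr20:13670066-13678089), stromelysin-3, which furin activates inside the cell, had 0 counts in all 6 libraries. A count of 0 allows a level of up to 3 counts, which was 0.163 to 0.178 CPM in the IANX libraries and 0.207 to 0.250 CPM in the Sham libraries. Mmp3, Mmp10, Mmp1 and Mmp1b are related genes of the chromosome 8 cluster, and how alike their transcripts are was not examined. How reads with several alignments were counted is not stated, so that the low counts of these genes are uncertain. No family gene overlapped another gene of the table.

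Of the membrane-type MMPs, Mmp14 and Mmp15 moved in opposite directions. Mmp14 (ENSRNOG00000010947, chr15:33074441-33083655), which encodes the transmembrane enzyme that activates pro-MMP2, had 329, 284 and 326 CPM in IANX 1, 2 and 3, against 199.7, 174 and 184 CPM in Sham 1, 2 and 3. These were among the tightest groups of the family, with SDs of 8.01% of the mean in IANX and 6.84% in Sham. The log2 fold change was 0.75 (standard error 0.15, adjusted p = 0.0104, edgeR), and Mmp14 did not pass without Sham 2 or Sham 3 (adjusted p = 0.0539 and 0.0667). With library sizes as the only scaling, which moved the median of all genes to a log2 fold change of 0.53, that of Mmp14 was 1.20.

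Mmp15 (ENSRNOG00000012622, chr19:10079765-10101451), another transmembrane MMP, had 61.7, 212 and 109.5 CPM in IANX 1, 2 and 3, against 754, 1043 and 820.0 CPM in Sham 1, 2 and 3. The highest IANX library, IANX 2, was still far below the lowest Sham library. The log2 fold change was -2.77 (standard error 0.45, adjusted p = 0.0045, edgeR). It was -3.39 without IANX 2 and -2.03 in IANX 2 alone, and Mmp15 passed in all 15 alternatives. The Schwann cell markers, 7 of 8 of which also fell, were at 1760.1, 7353 and 3708 CPM in IANX 1, 2 and 3 as a sum. Mmp15 had the same order as this sum in IANX but not in Sham, where the sum was 76028, 82548 and 71428 CPM in Sham 1, 2 and 3. The part of the Schwann cells in the result was not tested.

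Mmp17 (ENSRNOG00000023643, chr12:30701911-30728682), whose enzyme is held on the membrane by a lipid anchor, was low in both groups. It had 3.11, 12.7 and 6.64 CPM in IANX 1, 2 and 3, against 1.86, 0.833 and 1.85 CPM in Sham 1, 2 and 3, from 55, 233 and 112 counts and from 27, 10 and 25 counts. IANX 2 was 4.08 times IANX 1. The log2 fold change was 2.29 (standard error 0.58, adjusted p = 0.0221, edgeR), and 1.64 without IANX 2. Without Sham 1, Sham 2 or Sham 3 Mmp17 did not pass (adjusted p = 0.0648, 0.0917 and 0.0728). Its order was that of the macrophage marker sum given for Mmp9 in IANX but not in Sham, and the part of macrophages was not tested here either.

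Mmp19 (ENSRNOG00000006778, chr7:3216497-3224201), a secreted MMP that cuts basement membrane proteins, had 22.0, 68.4 and 20.7 CPM in IANX 1, 2 and 3, against 12.2, 11.4 and 12.8 CPM in Sham 1, 2 and 3. The Sham libraries nearly coincided, and IANX 2 was more than 3 times each of the other IANX libraries. The log2 fold change was 1.61 (standard error 0.47, adjusted p = 0.0342, edgeR). It was 0.78 without IANX 2, where the gene still passed (adjusted p = 0.0100), and 2.50 in IANX 2 alone. Mmp19 did not pass without Sham 1, Sham 2 or Sham 3 (adjusted p = 0.105, 0.129 and 0.105). The macrophage marker sum given for Mmp9 was also highest in IANX 2, but Mmp19 had its order in Sham and not in IANX, and the part of macrophages was not tested.

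**Figure D2:**
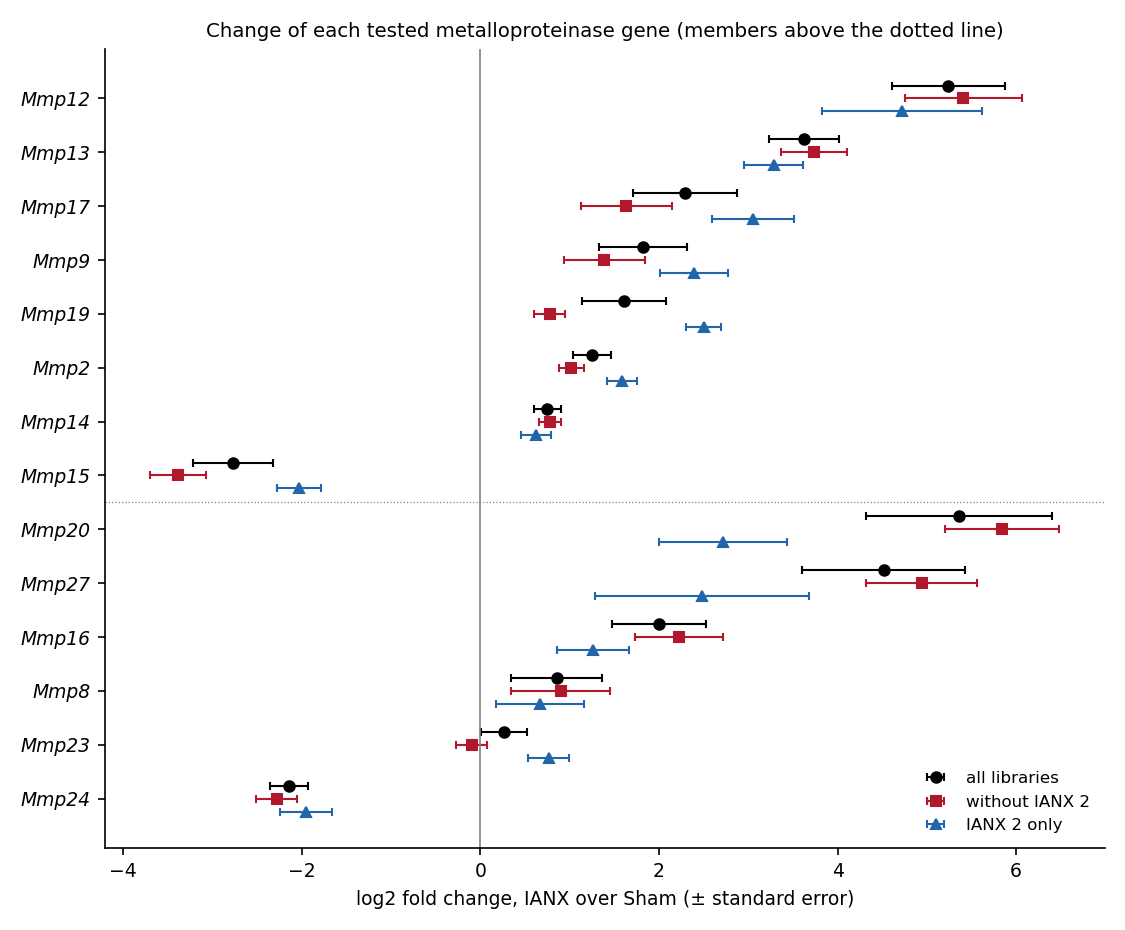
Log2 fold change of IANX over Sham with its standard error for the 14 tested MMP genes, with all libraries (circles), without IANX 2 (squares) and with IANX 2 as the only IANX library (triangles, where the spread comes from Sham alone); the 10-gene list's tested genes stand above the dotted line. For Mmp19 the points spread from 0.78 to 2.50 and for Mmp20 IANX 2 alone is at 2.72, while Mmp13 and Mmp14 stay close together.

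IANX 2 was the highest IANX library for 5 of the 8 tested genes (Mmp2, Mmp9, Mmp15, Mmp17 and Mmp19), IANX 3 for Mmp12 and Mmp13, and IANX 1 for Mmp14. All 8 were called in the same direction without IANX 2 and also with IANX 2 as the only IANX library. With IANX 2 alone the spread is that of the Sham libraries. Of all genes, 23.1% were higher and 21.8% lower without IANX 2, or 45.0% in either direction. In IANX 2 alone 11.5% were higher and 12.0% lower, or 23.5% in either direction.

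Levels of different genes were set side by side in FPKM (fragments scaled to gene length and library size). In IANX the order by mean FPKM was Mmp2 (203 ± 49.5), Mmp13 (181 ± 63.5), Mmp14 (126 ± 7.77), Mmp15 (31.5 ± 19.6), Mmp9 (22.4 ± 12.0), Mmp19 (18.3 ± 13.8), Mmp17 (2.11 ± 1.40), Mmp12 (1.72 ± 0.850), Mmp3 (0.0872 ± 0.0202) and Mmp11 at 0 (SD, n = 3). Neighbours in this order whose libraries overlapped were Mmp2 and Mmp13, Mmp15 and Mmp9, Mmp9 and Mmp19, and Mmp17 and Mmp12. In Sham the order began with Mmp15 (220.2 ± 39.6), followed by Mmp2 (87.6 ± 7.77), Mmp14 (77.1 ± 4.99), Mmp13 (15.1 ± 5.69), Mmp9 (6.46 ± 2.75) and Mmp19 (6.11 ± 0.326). Then came Mmp17 (0.435 ± 0.168), Mmp12 (0.0426 ± 0.00434), Mmp3 (0.0281 ± 0.0243) and Mmp11 at 0 (SD, n = 3). There Mmp2 and Mmp14, Mmp9 and Mmp19, Mmp12 and Mmp3, and Mmp3 and Mmp11 overlapped.

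The 22 MMP genes found in the table summed to 709 ± 52.0 FPKM in IANX and 460.2 ± 30.6 FPKM in Sham (SD, n = 3), a ratio of 1.54. What the sum was made of differed more than its size. Mmp15 made up 2.26%, 7.57% and 3.47% of it in IANX 1, 2 and 3, against 42.9%, 53.5% and 46.5% in Sham 1, 2 and 3. Mmp13 made up 21.7%, 20.8% and 33.3% in IANX 1, 2 and 3, against 4.66%, 1.87% and 3.50% in Sham 1, 2 and 3. The shares of Mmp14 were nearly equal, at 17.8 ± 1.74% in IANX and 16.8 ± 1.99% in Sham, and those of Mmp2 were 28.8 ± 7.62% in IANX and 19.1 ± 2.58% in Sham (SD, n = 3). The FPKM of Mmp13 over that of Mmp15 was 9.58, 2.74 and 9.59 in IANX 1, 2 and 3, against 0.109, 0.0349 and 0.0753 in Sham 1, 2 and 3. Thus the collagenase stood above the membrane-type gene in each IANX library and below it in each Sham library. A share falls when another gene of the sum rises, so that the shares are not independent of each other.

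**Figure D3:**
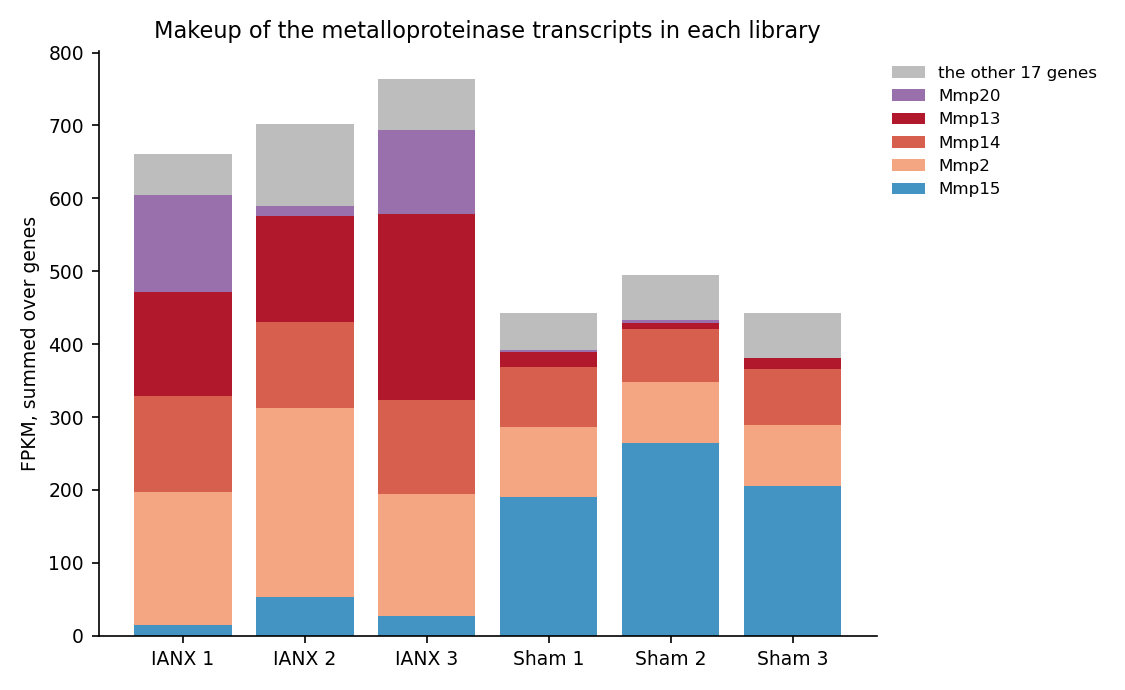
Summed FPKM of the 22 MMP genes in each library, IANX left of Sham, stacked by gene with the 17 lesser genes in grey. Mmp15 (blue) is 42.9% to 53.5% of the Sham bars and 2.26% to 7.57% of the IANX bars, and Mmp20 (purple) is thick in IANX 1 and IANX 3 but thin in IANX 2.

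Of the family's other names, 12 were found in the table and 6 were tested. Of these 6, 3 were higher, 1 was lower and 2 did not pass, beside 17.8% higher and 16.6% lower over all tested genes. Their median log2 fold change was 1.43, against 0.08 over all genes. Mmp27, 1 of the 3 higher, reached the filter's level in IANX libraries only, and the count and the median include it. Without Sham 3, 1 of the other names was higher. Mmp20 (chr8:5833359-5875232), which encodes enamelysin, the MMP of forming enamel, had 449, 46.7 and 390.4 CPM in IANX 1, 2 and 3, against 6.14, 13.8 and 1.70 CPM in Sham 1, 2 and 3. Its log2 fold change was 5.36 (standard error 1.05, adjusted p = 0.00885, edgeR), 6.21 without Sham 2 and 2.72 in IANX 2 alone. IANX 1 and IANX 3 were high and IANX 2 low, as for the tooth marker sum given above, though IANX 1 and IANX 3 stood in the other order, and the part of tooth tissue in the result was not tested. Without Mmp20 and the other names, the 10 genes alone summed to 586 ± 81.3 FPKM in IANX and 413 ± 22.8 FPKM in Sham (SD, n = 3).

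The membrane-type genes Mmp16 and Mmp24 moved in opposite directions. Mmp16 had 36.7, 11.9 and 11.4 CPM in IANX 1, 2 and 3, against 6.49, 3.25 and 5.24 CPM in Sham 1, 2 and 3 (log2 fold change 2.0, standard error 0.52, adjusted p = 0.0244, edgeR). The log2 fold change of Mmp16 was 1.22 without IANX 1 and 1.26 with IANX 2 as the only IANX library. Mmp16 did not pass without Sham 1, Sham 2 or Sham 3 (adjusted p = 0.0596, 0.104 and 0.0855, edgeR). With limma on unfiltered FPKM it did not pass either (adjusted p = 0.0890). Mmp24 had 24.8, 26.9 and 19.4 CPM in IANX 1, 2 and 3, against 86.6, 132 and 96.1 CPM in Sham 1, 2 and 3 (log2 fold change -2.14, standard error 0.22, adjusted p = 0.000898, edgeR). Mmp24 and Mmp15 were the family's 2 called decreases, and both encode membrane-type enzymes.

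Mmp27 had 78, 11 and 41 counts in IANX 1, 2 and 3, against 1, 2 and 1 counts in Sham 1, 2 and 3. The ratio of normalized counts was 24.6 (95% counting interval 9.38 to 91.6), and the fitted log2 fold change of 4.52 (adjusted p = 0.0102, edgeR) was 3.79 without IANX 1. Without Sham 3, or with IANX 2 as the only IANX library, it did not pass (adjusted p = 0.0535 and 0.174). Like Mmp12, it reached the filter's level in IANX libraries only. Mmp8, the neutrophil collagenase, had 8.09, 14.0 and 26.0 CPM in IANX 1, 2 and 3, against 6.90, 5.50 and 14.2 CPM in Sham 1, 2 and 3, with overlapping groups (log2 fold change 0.85, adjusted p = 0.225, edgeR). Mmp23 overlapped as well, at 23.8 to 42.4 CPM in IANX and 21.6 to 28.8 CPM in Sham (log2 fold change 0.27, adjusted p = 0.459, edgeR).

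The rest of the family was too low to test. Mmp7, matrilysin, had 2, 13 and 10 counts in IANX 1, 2 and 3, against 1, 0 and 0 counts in Sham 1, 2 and 3, a ratio of 18.9 with a 95% counting interval of 3.10 to 777. Mmp10, stromelysin-2, had 5, 1 and 2 counts in IANX 1, 2 and 3 and 0 in Sham. With Sham set at the limit of 3 counts over its 3 libraries together, normalized counts in IANX were 2.02 times those in Sham. The IANX counts were taken as exact in this, so that the value is not a lower limit of the ratio. Mmp1 had 1 count in IANX 1 and 0 elsewhere, and Mmp21 had 1 count in IANX 1 and 1 in Sham 2. Mmp1b and Mmp28 had 0 counts in all 6 libraries.

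**Figure D4:**
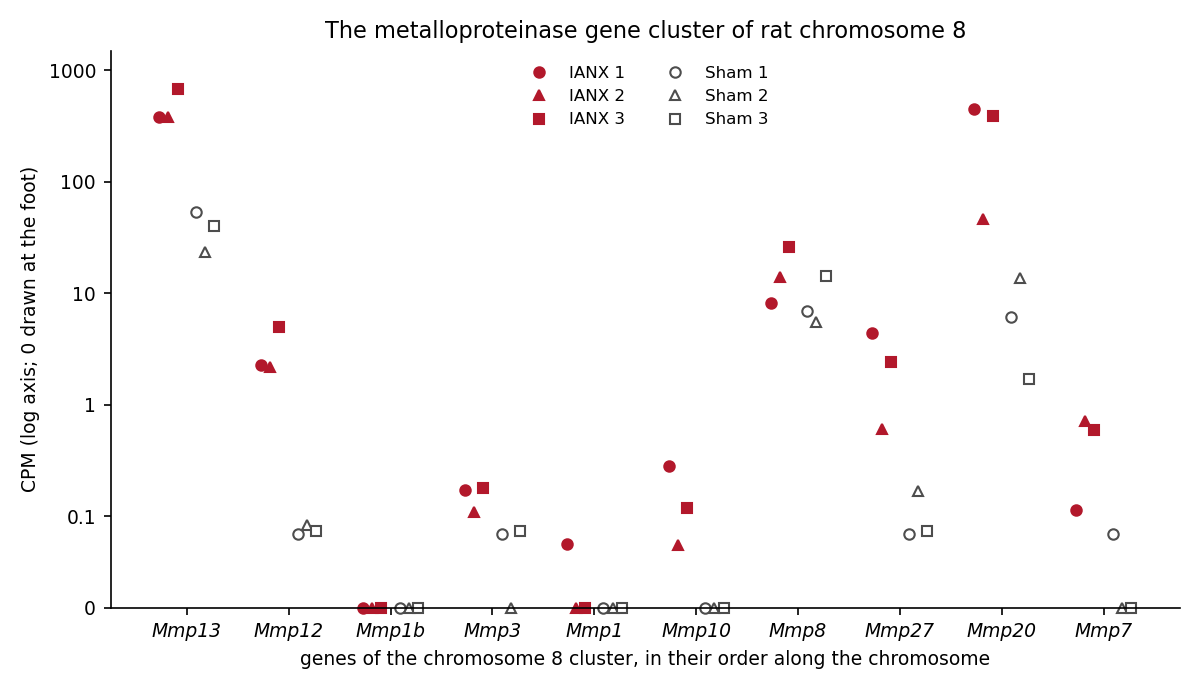
TMM-normalized CPM (log axis, with 0 drawn at the foot) of the 10 MMP genes of the chromosome 8 cluster, in their order along the chromosome, for the IANX libraries (filled, left of each gene) and the Sham libraries (open, right). Mmp13 and Mmp20 are the highest in IANX, Mmp12 and Mmp27 reach a few CPM, and Mmp1b, Mmp3, Mmp1 and Mmp10 each have at most 5 counts in any library.

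Among the 7 inhibitor genes, there were 2 higher, 2 lower and 3 not past the threshold, with a median log2 fold change of -0.58. Over all tested genes, 17.8% were higher and 16.6% lower. In the inhibitor list the number higher was 0 without Sham 1, Sham 2 or Sham 3, and 1 was lower without Sham 2. Without IANX 2, 1 was higher and 3 were lower. Timp3, which encodes the TIMP that binds to matrix, had 106, 140.2 and 116 CPM in IANX 1, 2 and 3, against 311, 200.4 and 264 CPM in Sham 1, 2 and 3 (log2 fold change -1.10, standard error 0.21, adjusted p = 0.00838, edgeR). Reck, a membrane-anchored inhibitor, had 87.0, 70.8 and 54.6 CPM in IANX 1, 2 and 3, against 126, 158 and 132 CPM in Sham 1, 2 and 3 (log2 fold change -0.97, standard error 0.20, adjusted p = 0.0112, edgeR). Both thus fell, and Reck did not pass without Sham 2 or with library sizes only (adjusted p = 0.0514 and 0.0570).

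The other TIMP genes did not pass with edgeR on all libraries. Timp1 had 132, 296 and 167 CPM in IANX 1, 2 and 3, against 124, 118 and 112 CPM in Sham 1, 2 and 3 (log2 fold change 0.75, adjusted p = 0.0841, edgeR). Timp2, whose protein takes part in the activation of pro-MMP2 by MMP14, had 250.3, 653 and 342 CPM in IANX 1, 2 and 3, against 754, 813 and 708 CPM in Sham 1, 2 and 3 (log2 fold change -0.87, adjusted p = 0.0885, edgeR). In both genes the groups did not overlap, and IANX 2 was the highest IANX library. Without IANX 2, Timp2 passed at -1.39 (adjusted p = 0.00111) and Timp1 was at 0.30 (adjusted p = 0.121). Without IANX 1, Timp1 passed at 0.98 (adjusted p = 0.0342) and Timp2 was at -0.60 (adjusted p = 0.190). With DESeq2 on all libraries, Timp2 passed at -0.90 (adjusted p = 0.0379) and Timp1 did not (adjusted p = 0.0781). With library sizes only, Timp1 passed at 1.19 (adjusted p = 0.0119) and Timp2 did not (-0.43, adjusted p = 0.287). Timp4 was low, at 3.51 to 6.58 CPM in IANX and 7.33 to 8.70 CPM in Sham (log2 fold change -0.58, adjusted p = 0.170, edgeR).

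The 2 inhibitor genes that rose were A2m and Tfpi2. A2m, which encodes the protease-trapping alpha-2-macroglobulin, had 4.47, 27.7 and 5.10 CPM in IANX 1, 2 and 3, against 0.276, 0.916 and 1.70 CPM in Sham 1, 2 and 3 (log2 fold change 3.68, standard error 0.93, adjusted p = 0.0213, edgeR). It was 2.27 without IANX 2, and 4.38 without Sham 3, where A2m did not pass (adjusted p = 0.0526). Tfpi2, a Kunitz-type inhibitor of plasmin that also acts on MMPs, had 3.34, 6.86 and 3.20 CPM in IANX 1, 2 and 3, against 1.45, 0.999 and 1.99 CPM in Sham 1, 2 and 3 (log2 fold change 1.58, standard error 0.46, adjusted p = 0.0336, edgeR). It did not pass without IANX 2 (adjusted p = 0.0730). Neither gene passed without Sham 1 or Sham 2 (adjusted p = 0.0729 and 0.0973 for A2m, 0.105 and 0.124 for Tfpi2), nor did Tfpi2 without Sham 3 (0.0737).

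**Figure D5:**
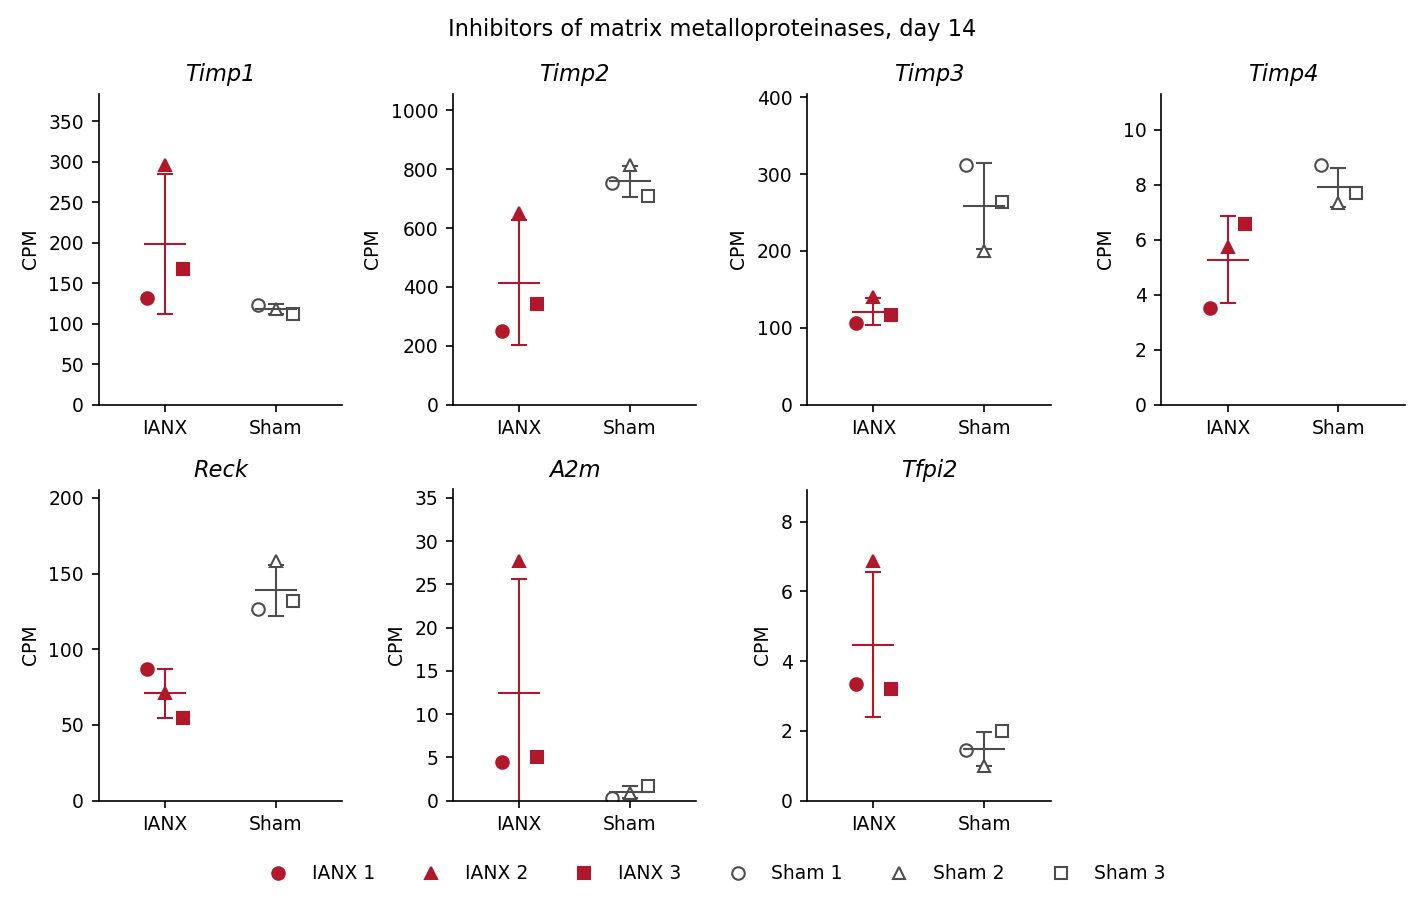
TMM-normalized CPM of the 7 MMP inhibitor genes in each library, IANX (filled, red) left of Sham (open, grey), with the mean and SD of 3 libraries; the lower SD bar of A2m in IANX runs past the axis at 0. Timp3 and Reck lie lower in IANX, A2m and Tfpi2 higher, and IANX 2 is the highest IANX library for Timp1 and Timp2.

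Set against their inhibitors in FPKM, the enzymes' genes stood higher in each IANX library than in any Sham library for 3 of 4 pairs. In CPM, each gene of these pairs had groups apart by itself, as did 51.5% of all tested genes. The ratios are thus not a separate result, and no share over other pairs of genes was computed. Mmp13 over Timp1 was 0.830, 0.363 and 1.16 in IANX 1, 2 and 3, against 0.122, 0.0569 and 0.102 in Sham 1, 2 and 3. Mmp2 over Timp2 was 1.25, 0.658 and 0.838 in IANX 1, 2 and 3, against 0.211, 0.166 and 0.196 in Sham 1, 2 and 3. Mmp14 over Timp2 was 0.895, 0.296 and 0.649 in IANX 1, 2 and 3, against 0.180, 0.146 and 0.177 in Sham 1, 2 and 3. For Mmp9 over Timp1 the groups overlapped, at 0.0562, 0.0840 and 0.108 in IANX 1, 2 and 3 and 0.0396, 0.0222 and 0.0597 in Sham 1, 2 and 3. For the Timp1 and Timp2 ratios other than that of Mmp9, IANX 2 was the lowest IANX library. With 3 libraries against 3, an exact permutation test of such a ratio cannot give a p under 0.1, and none was run.

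Among 14 tested genes of MMP activation and binding, there were 5 higher, 1 lower and 8 not past the threshold. Their median log2 fold change was 0.49. Beside these counts stand 17.8% higher and 16.6% lower over all tested genes. In the list of 14 the number higher was 3 without IANX 3, Sham 1 or Sham 2 and 2 without Sham 3. Cd44, a cell-surface hyaluronan receptor that docks MMP9, had 184, 141 and 328 CPM in IANX 1, 2 and 3, against 38.7, 23.7 and 32.6 CPM in Sham 1, 2 and 3 (log2 fold change 2.78, standard error 0.35, adjusted p = 0.00198, edgeR). Plau and Plaur, for urokinase and its receptor, which start plasmin formation, were both higher, at log2 fold changes of 1.76 for Plau and 2.23 for Plaur (adjusted p = 0.0169 and 0.00878, edgeR). Plau had one of 1.13 without IANX 2, and did not pass without Sham 1, Sham 2 or Sham 3 (adjusted p = 0.0587, 0.0776 and 0.0746). Pcsk6, a proprotein convertase like furin, had 24.8, 22.1 and 25.5 CPM in IANX 1, 2 and 3, against 123, 123 and 119 CPM in Sham 1, 2 and 3 (log2 fold change -2.34, standard error 0.14, adjusted p = 0.000231, edgeR). Plg, for plasminogen itself, did not pass (log2 fold change -0.67, adjusted p = 0.265, edgeR).

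Among 26 tested genes of MMP substrates, there were 4 higher, 12 lower and 10 not past the threshold, with a median log2 fold change of -0.59. The shares over all tested genes were 17.8% higher and 16.6% lower. Col1a1, Col1a2 and Col3a1, for the fibrillar collagens types I and III, were among the 10 substrate genes that did not pass. Tnc, for the injury matrix protein tenascin-C, had 843, 413 and 316 CPM in IANX 1, 2 and 3, against 44.4, 25.0 and 65.4 CPM in Sham 1, 2 and 3 (log2 fold change 3.54, standard error 0.50, adjusted p = 0.00278, edgeR). Acan, for the proteoglycan aggrecan, was higher (log2 fold change 3.36, adjusted p = 0.00964, edgeR). Its log2 fold change was 3.95 without Sham 1 and 1.93 with IANX 2 as the only IANX library. Without Sham 3 the gene did not pass (adjusted p = 0.0511, edgeR). Mbp, for myelin basic protein, had 751, 3535 and 1595 CPM in IANX 1, 2 and 3, against 32499.5, 33964 and 30382 CPM in Sham 1, 2 and 3 (log2 fold change -4.04, standard error 0.63, adjusted p = 0.00406, edgeR), and -4.82 without IANX 2. Col2a1, for the fibrillar collagen of cartilage, had 8.72, 7.57 and 10.3 CPM in IANX 1, 2 and 3, against 103, 165 and 91.4 CPM in Sham 1, 2 and 3 (log2 fold change -3.76, adjusted p = 0.000414, edgeR). Mbp is also a Schwann cell marker, and Acan and Col2a1 are also on the cartilage list. The number of lower substrates was 18 without IANX 2 and 7 to 9 without Sham 1, Sham 2 or Sham 3, and that of higher ones was 2 without Sham 2 and 1 without Sham 3.

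Other marker lists bear on which cells the libraries held, and their counts stand beside 17.8% higher and 16.6% lower over all tested genes. Of 10 fibroblast markers, 5 were higher and 0 lower, with sums of 29218, 29620 and 14157 CPM in IANX 1, 2 and 3 and 14279 to 21434 CPM in Sham. Of 9 osteoclast markers, 7 were tested and 3 higher, with sums of 369.99, 1208 and 607 CPM in IANX 1, 2 and 3 and 384, 133 and 281 CPM in Sham 1, 2 and 3, and Dcstamp was at 0 in all libraries. Mmp9, which osteoclasts also make, had the order of this sum in IANX but not in Sham. Of 9 cartilage markers, 7 were tested, 1 was higher and 3 were lower, with sums of 320 to 1043 CPM in IANX and 551 to 727 CPM in Sham, and Col10a1 was at 0 in Sham. Of 7 epithelial markers, 6 were tested and 5 higher, with sums of 1429, 36.9 and 2944 CPM in IANX 1, 2 and 3 and 391 to 473 CPM in Sham. Endothelial (7 markers, 6 tested, 0 called, sums of 162 to 364 CPM in IANX and 319 to 345 CPM in Sham, Cldn5 at 0 in all) and muscle markers (7 tested, 0 called, sums of 84.2 to 1220.3 CPM in IANX and 61.8 to 384 CPM in Sham) were not called. The part of these cells in the MMP values was not tested.

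For each tested gene, the genes with the most similar pattern were found as those with the smallest root mean square difference of centred log2 CPM over the 6 libraries, among the 11363 genes averaging 5 CPM or more. This is a description, and it rests in part on the difference between the groups. Nearest to Mmp13 were Ttk (0.229), Top2a (0.306) and Ndc80 (0.329), which encode proteins of dividing cells, and nearest to Mmp12 was Mmp13 itself (0.403), before Entpd3 and Rgs16. Nearest to Mmp15 were Sh3tc2 (0.130), a gene of myelinating Schwann cells, Fxyd6 (0.130) and Egfl8 (0.152). Nearest to Mmp17 were Cd84 (0.218), Clec7a (0.246) and Gpnmb (0.246), and nearest to Mmp9 were Emb (0.204), Cd84 and Napsa. Of these, Cd84, Clec7a and Gpnmb encode surface proteins of immune cells. Nearest to Mmp19 were RT1-Ba (0.108), of the rat class II major histocompatibility complex, Jun (0.114), a subunit of AP-1, and Ctss (0.118), for cathepsin S. Nearest to Mmp2 were Cd83 (0.0430), Cep164 and Slc41a3, and nearest to Mmp14 were Papola (0.0383), RGD1310712 and Cse1l.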

How the data were processed

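Counts per gene were made by the authors from poly-A libraries (paired reads) with HISAT2 2.0.5 on rn6, StringTie 1.3.3b and featureCounts 1.5.0-p3, and deposited for 34106 genes. The authors derived the deposited FPKM from the counts and gene lengths, with 1 library size per sample that differs from the column total. Annotation release, strand setting and treatment of multiply aligned reads are not given in the sources used here. The table's group means, log2 fold changes and p-values of the authors' own comparison were not used.

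After filterByExpr and TMM scaling, genes were tested by edgeR's two-sided quasi-likelihood test (glmQLFTest; edgeR 4.0.16, R 4.3.3), with the group as the only term. The method was also run on simulated data in which few genes changed. That run does not test the scaling where many genes change, as they did here. Alternatives were DESeq2 1.42.0, RLE size factors, library sizes only, no filter, leaving out each library, IANX 2 alone, the replicate number as a term, and limma 3.58.1 on log2 FPKM, with a pseudocount of 1 or 0.1 for genes reaching 1 FPKM in 3 samples, and of 1 for all genes. Intervals of ratios and the floor of 3 counts (95%) cover counting error only.

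The genes and lists were chosen with earlier results of these data known. Of 171 genes in 16 lists, 163 were matched by symbol, and the others were not analysed here. Some further Schwann cell markers are not reported here. All family and inhibitor genes are named, and of the activator and substrate lists the 4 largest called changes; the further activator and collagen genes, and which of the family's genes have motifs, were named after their values were seen.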

Additional observations from a re-analysis of the deposited data

How the results depend on the processing

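Of 427 log2 fold changes of 29 genes under 15 alternatives, 373 kept their direction and their side of the threshold, 46 no longer passed, 7 passed newly and 1 turned its direction (Mmp23, -0.10 without IANX 2, adjusted p = 0.673, edgeR; its range with 1 library left out was -0.10 to 0.41). Mmp2, Mmp12, Mmp13 and Mmp15 passed in all 15. Of the 10 genes, 7 were higher and 1 was lower with DESeq2, RLE size factors, library sizes only and no filter. The number of higher genes was 3 to 7 when 1 library was left out. It was 5 of 7 tested with limma on filtered FPKM, which left Mmp17 out. With limma on unfiltered FPKM it was 4 of 9 tested, and Mmp9, Mmp17 and Mmp19 did not pass (adjusted p = 0.0803, 0.0930 and 0.119). Mmp15 was the 1 lower gene under each alternative. Over all genes, RLE size factors gave 2555 higher and 2659 lower of 15374, and library sizes only gave 5919 and 1468. edgeR without a filter gave 2565 higher and 2432 lower of 22931. Filtered limma with a pseudocount of 1 gave 2077 higher and 2718 lower of 14173, and with 0.1 it gave 2036 and 2685. Limma without a filter gave 1609 higher and 2381 lower of 22931. Leaving out 1 library gave 961 to 3712 higher and 1494 to 3504 lower. Fewer samples are left to the test when a library is left out.

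Whether the replicate numbers shared by the groups pair the samples is not stated, and correlations over 3 libraries per group cannot decide it. Same-numbered libraries deviated from their group means with correlations of 0.086, -0.014 and 0.075. IANX 1 and IANX 3 were closest to the Sham library of the same number, while IANX 2 was closest to Sham 3 (0.047). With the replicate block, 4 of the 8 tested genes of the list were higher and 1 was lower. Over all 15374 tested genes, 2175 were higher and 2299 lower with it. Mmp9, Mmp17 and Mmp19 did not pass with the block (adjusted p = 0.0623, 0.0693 and 0.0637, edgeR). Depth limits Mmp3, Mmp11, Mmp1, Mmp1b, Mmp7, Mmp10, Mmp21 and Mmp28 most, and the Sham level of Mmp12 rests on 3 counts.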
